A study of Mus musculus with 12 samples.

Results

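The expression of 9 nuclear receptor genes was followed in organoids of mouse pancreatic ductal adenocarcinoma in which the transcription factor Spdef had been deleted and then put back. The genes were the retinoic acid receptor Rara, the vitamin D receptor Vdr, the fatty acid receptor Pparg, the shared partner Rxra, the orphan receptors Nr2f1, Nr2f2 and Nr2f6, the pancreatic and liver receptor Nr5a2 and the estrogen-related receptor Esrra. They were chosen by name from 53715 gene identifiers, with their counts in these libraries already known, so their own levels and differences are given as a description. The reason given for the choice was that SPDEF has been named as a partner of a steroid receptor in prostate epithelium. Of the 9 genes, 8 passed the filter on low counts that left 14473 genes for testing, and Nr5a2 did not.

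All organoids came from KPC tumours of C57/Bl6 mice, in which Pdx1-Cre is active in the pancreatic epithelial lineage and mutant Trp53 is carried with loss of the other copy (Trp53 LSL-R172H/LOH). There were 2 lines, mT69a and mT6, each in 3 states with 2 libraries per state and 12 libraries in all. The vector group was a clone with Spdef knocked out that carried an SPDEF overexpression construct. The knockout group was such a clone with an empty construct. The control group was a clone knocked out at Rosa26, a neutral locus, also with an empty construct. Each state of a line rests on 1 clone label, and the knockout and vector libraries of a line share the same one. Differences between clones and the loss of Spdef therefore cannot be told apart. The labels do not say that the 2 libraries of a group came from separate cultures.

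Nuclear receptors are transcription factors that most often carry a small fat-soluble ligand in a pocket and exchange corepressors for coactivators when it binds. RARA, VDR and PPARG bind DNA together with RXRA, so that RXRA serves many of them at once, whereas orphan receptors such as the COUP-TF group (NR2F1, NR2F2 and NR2F6) have no agreed natural ligand and often act as repressors. In the exocrine pancreas NR5A2 is known for upholding acinar gene expression, and PPARG and HNF4A are known as receptors of epithelial and gastrointestinal differentiation. SPDEF is an ETS-family factor of mucus-secreting epithelium that favours a GGAT core, where most ETS factors favour GGAA.

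The bases before the start of the leading transcript are shown for Rxra and Pparg, the members whose average of vector against knockout passed the test across all genes, and for Esrra, a member with steady counts. The windows are from RefSeq on GRCm38.p6, written 5′ to 3′ on the strand of the gene, and the capitals mark GGAT or GGAA on either strand. The Rxra window is chr2:27676951-27677200 on the plus strand, the Pparg window is chr6:115362099-115362291 on the plus strand, and the Esrra window is chr19:6921809-6922058 on the minus strand. Each ends just before the start of the leading transcript, the coding one with the highest mean share of its gene. The Rxra and Pparg windows lie within the gene as annotated, since other transcripts start earlier, but touch no exon, and the Esrra window shares its last few bases with the first exon of the noncoding Esrra-204.
Rxra: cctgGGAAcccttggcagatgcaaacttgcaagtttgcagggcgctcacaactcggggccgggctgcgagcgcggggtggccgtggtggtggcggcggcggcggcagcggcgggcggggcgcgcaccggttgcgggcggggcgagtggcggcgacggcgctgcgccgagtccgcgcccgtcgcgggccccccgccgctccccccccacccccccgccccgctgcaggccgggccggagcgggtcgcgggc
Pparg: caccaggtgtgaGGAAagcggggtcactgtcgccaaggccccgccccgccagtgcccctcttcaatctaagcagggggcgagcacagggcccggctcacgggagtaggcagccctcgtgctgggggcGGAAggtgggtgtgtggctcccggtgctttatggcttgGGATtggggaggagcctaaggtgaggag
Esrra: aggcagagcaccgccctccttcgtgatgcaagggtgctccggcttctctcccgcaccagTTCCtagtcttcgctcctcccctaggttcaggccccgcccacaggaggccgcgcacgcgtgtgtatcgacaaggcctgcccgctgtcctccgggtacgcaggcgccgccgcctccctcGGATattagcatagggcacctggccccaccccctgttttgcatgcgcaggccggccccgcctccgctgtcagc
The general ETS core GGAA occurred once in the Rxra stretch, 2 times in the Pparg stretch and once in the Esrra stretch. The GGAT core that SPDEF favours occurred once each in the Pparg and Esrra stretches and 0 times in the Rxra stretch. AGGTCA, the half-site that many nuclear receptors bind, was in none of these 3 stretches on either strand. Over 32851 promoter windows of 300 bases (250 before and 50 after each start), GGAA was present on either strand in 96.0%. The GGAT core was present on either strand in 79.6% of the windows. The receptor half-site was present on either strand in 16.3% of them. In windows of that length for the coding transcript with the highest mean share of each gene, the Nr2f2 window held the general core 7 times and the SPDEF core 5 times, against medians of 3 and 2 over all windows, and the receptor half-site was found once for Pparg and once for Nr5a2. Matches that overlap one another were each counted, and a match is a description of the sequence alone.

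Depth ran from 9094295 to 28903831 expected counts per library, and mitochondrial genes took 12.7% to 15.5% of them in every first replicate and 18.6% to 27.1% in every second replicate. Spdef itself had 2 and 0 counts in the mT69a vector libraries, 2 and 0 in the knockout and 2 and 4 in the control, so the deletion could not be read in mT69a at this depth. In mT6 Spdef had 1 and 0 counts in the vector libraries, 0 and 2 in the knockout and 30 and 29 in the control, which put the knockout 22.7-fold lower than the control (95% exact interval from 6.01 to 192). The construct therefore did not show as mouse Spdef counts. Agr2, a secretory gene known to be activated by SPDEF, had 5.64 and 7.58 CPM (counts scaled to the library size) in mT69a vector libraries, 0.323 and 0.348 in the knockout and 6.13 and 19.5 in the control. In mT6 Agr2 had 107 and 243 CPM in vector libraries, 12.4 and 24.2 in the knockout and 90.6 and 108 in the control. All 9 ductal epithelial markers were present in every library, at a summed 2236 to 5099 TPM, whereas the 7 fibroblast markers summed to at most 0.23 TPM, the 5 endothelial markers to at most 0.37 TPM and the 6 immune markers to 2.1 to 14.3 TPM.

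Between genes, levels are compared in TPM, transcript units that divide by transcript length. Esrra had a median of 28.3 TPM over the 12 libraries, Nr2f6 27.0 TPM and Pparg 23.6 TPM, with ranges of 20.9 to 36.2, 17.0 to 33.0 and 8.57 to 60.0 TPM that overlapped one another. The middle group was Nr2f2 at 5.15 TPM, Rxra at 5.02 TPM and Rara at 4.84 TPM, whose ranges (3.10 to 6.18, 3.08 to 11.4 and 2.97 to 8.54 TPM) also overlapped. Nr2f1 followed at 1.08 TPM with a range from 0 to 3.61 TPM, and Vdr at 0.315 TPM with a range from 0.14 to 0.50 TPM. Nr5a2 had a median of 0 TPM and at most 0.27 TPM. In these bulk cultures fewer cells that express a gene and less RNA per cell cannot be told apart.

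**Figure D1:**
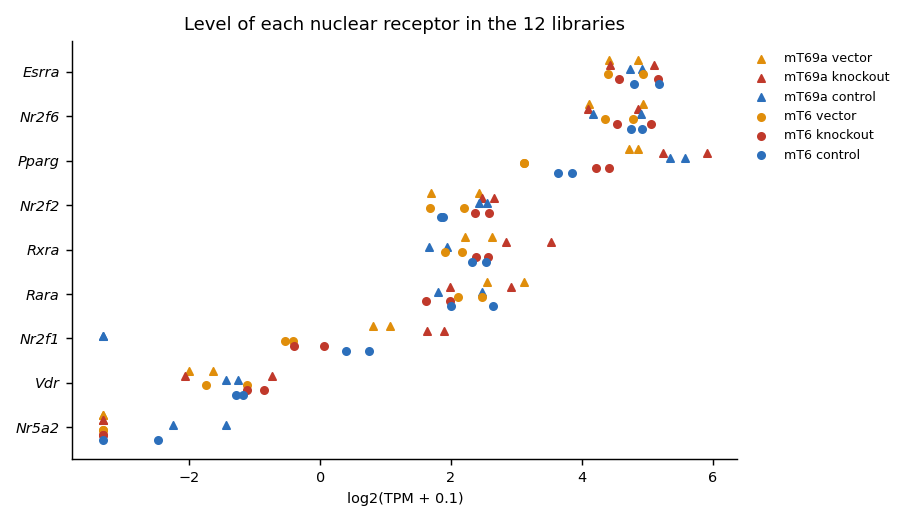
Level of each receptor in the 12 libraries on a log2(TPM + 0.1) axis, with mT69a as triangles, mT6 as circles and a colour for each state. Esrra, Nr2f6 and Pparg lie highest, Pparg is higher in mT69a than in mT6, and Nr2f1 is at 0 TPM in both mT69a control libraries.

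Rxra, the partner that the other ligand-dependent receptors share, differed between the states of mT69a. In mT69a, Rxra had 19.4 and 21.8 CPM in vector libraries, 39.5 and 32.2 in the knockout and 13.6 and 12.7 in the control. The 3 states of that line did not overlap, with the knockout highest and the control lowest. In mT6, Rxra had 15.5 and 15.8 CPM in vector libraries, 23.6 and 23.2 in the knockout and 19.3 and 26.1 in the control, so that the knockout lay within the control and the vector libraries below both. On the log2 scale the knockout differed from the control by 1.45 ± 0.17 (SE) in mT69a and by 0.04 ± 0.17 in mT6, and the difference between those values was 1.41 ± 0.24. Vector libraries lay below the knockout by similar amounts, with log2 fold changes of -0.80 ± 0.17 in mT69a and -0.58 ± 0.17 in mT6.

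Averaged over the lines, Rxra was 1.67-fold higher in the knockout than in the control (log2 fold change 0.74 ± 0.12) and 1.61-fold lower in vector libraries than in the knockout (-0.69 ± 0.12). Both passed the threshold of 0.05 on the Benjamini-Hochberg adjusted p of edgeR's quasi-likelihood test over all 14473 genes, and vector against control, at 0.05 ± 0.12, did not. That average joins opposite values in the lines, 0.65 ± 0.17 in mT69a, which passed, and -0.54 ± 0.17 in mT6, which passed only with the replicate number as a block. On TPM values tested with limma, at log2(TPM + 1), the average of knockout against control was 0.61. That of vector against knockout was -0.52, and neither of these averages passed. Chromosome 2, which holds Rxra, had a median log2 fold change of 0.0012 over 1081 genes in mT69a, knockout against control.

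Rara, a receptor for retinoic acid, was highest in the vector libraries of mT69a, at 20.4 and 17.2 CPM, with 15.1 and 10.7 in the knockout and 13.2 and 9.63 in the control. In mT6, Rara had 13.6 and 10.8 CPM in vector libraries, 8.85 and 8.02 in the knockout and 14.5 and 10.4 in the control, so there the knockout was lowest. The step between vector and knockout libraries was alike in the lines, with a log2 fold change of 0.54 ± 0.24 in mT69a and 0.53 ± 0.25 in mT6 and an average of 0.54 ± 0.17. It did not pass the threshold, and passed it once the replicate number was kept as a block.

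Vdr, the receptor for active vitamin D, was barely counted. It had 14 and 8 counts in mT69a vector libraries, 20 and 7 in the knockout and 16 and 15 in the control, and 7 and 13, 15 and 21, and 9 and 26 counts in the vector, knockout and control libraries of mT6. Scaled to library size, Vdr lay between 0.609 and 1.53 CPM, the knockout overlapped the control in mT69a and lay above it in mT6, and in neither line did all 3 states separate. The log2 fold change of knockout against control was 0.14 ± 0.34, with a 95% interval from -0.61 to 0.89. A change of that size in Vdr was not detectable at this depth.

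Pparg, which binds fatty acids and is best known for fat storage genes, was higher in mT69a than in mT6 in every state. In mT69a, Pparg had 45.6 and 47.7 CPM in vector libraries, 75.2 and 58.8 in the knockout and 71.5 and 73.2 in the control. In mT6 it had 15.3 and 11.5 CPM in vector libraries, 30.2 and 30.9 in the knockout and 20.7 and 22.1 in the control. In both lines the vector libraries were lowest, and in mT6 the knockout lay above the control, whereas in mT69a knockout and control overlapped. Vector against knockout gave a log2 fold change of -0.52 ± 0.15 in mT69a and -1.19 ± 0.16 in mT6. The average of -0.86 ± 0.11 (1.81-fold lower) and that of vector against control, -0.66 ± 0.11 (1.58-fold lower), both passed the threshold. Within mT69a, vector against knockout passed only with the replicate block.

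The controls differed by 1.75 ± 0.16 for Pparg, mT69a against mT6 (3.37-fold higher), the largest of its differences that were tested. The lines were not tested against each other in the other states. Adipocytes, where Pparg is most abundant, were represented by 5 markers of which 3 to 5 were at 0 in each library, Adipoq, Lep and Plin1 in all 12. Their summed level was 0.22 to 0.25 TPM in mT69a vector libraries, 0 to 0.05 TPM in the knockout and 1.73 to 1.91 TPM in the control, and at most 0.03 TPM in mT6.

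**Figure D2:**
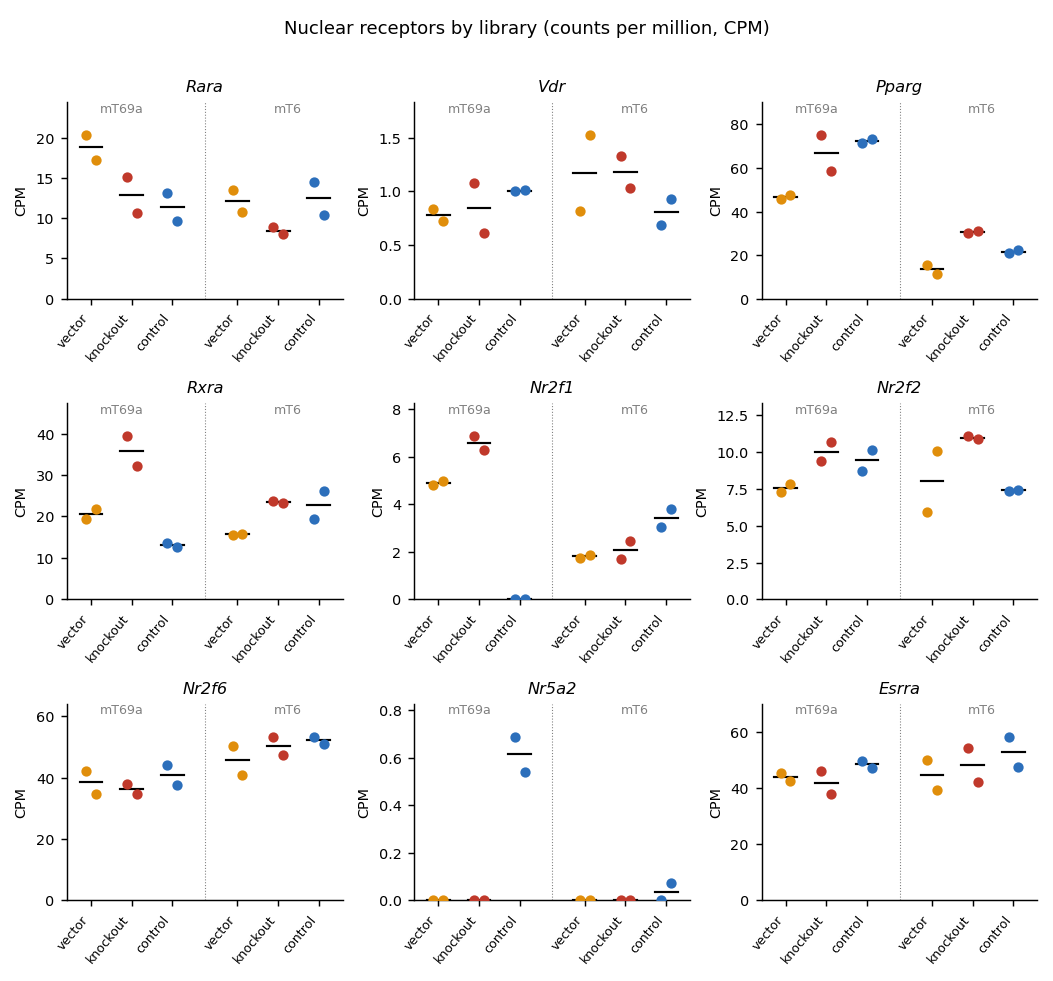
CPM of the 9 receptors in each library (points) with group means (bars), mT69a left of the dotted line and mT6 right of it, vector, knockout and control in each. Rxra peaks in the mT69a knockout (39.5 and 32.2 CPM), Pparg is lowest in the vector libraries of each line, and Nr2f1 is at 0 in the mT69a control while Nr5a2 is above 0 mainly there.

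Among the COUP-TF receptors, Nr2f1 was present or absent by group. In mT69a it had 81 and 55 counts in vector libraries, 128 and 72 in the knockout and 0 and 0 in the control. In mT6 it had 15 and 16 counts in vector libraries, 19 and 50 in the knockout and 40 and 107 in the control. Scaled to library size, Nr2f1 was at 4.81 and 4.96 CPM in mT69a vector libraries and 6.88 and 6.26 in the knockout, and at 1.75 to 1.88, 1.68 to 2.46 and 3.05 to 3.82 CPM in the vector, knockout and control libraries of mT6. The order of knockout and control was thus opposite in the lines. The 2 mT69a control libraries have 15350815 and 14724534 counts, which lies between the 15566407 and 11612907 of the knockout libraries.

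Against a floor of 3 counts summed over the control group, Nr2f1 was at least 68.3-fold higher in the mT69a knockout and at least 50.1-fold higher in the mT69a vector libraries. Without 1 library of either group the bound for the knockout was 32.9 to 70.7. In mT6 the log2 fold change was -0.72 ± 0.28 for knockout against control and -0.93 ± 0.31 for vector against control, and neither passed. Vector against knockout gave -0.43 ± 0.27 in mT69a and -0.21 ± 0.32 in mT6, so that Nr2f1 in vector libraries stayed near the level of the knockout clone in each line. The median log2 fold change of the 617 tested genes of chromosome 13, which holds Nr2f1, was 0 in mT69a, knockout against control.

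A830082K12Rik, a noncoding gene on the opposite strand (chromosome 13, 78198017 to 78279391), overlaps the first exon of Nr2f1, a gene that as a whole spans 78188973 to 78199757. It had 34 and 10 counts in mT69a vector libraries, 39 and 19 in the knockout and 0 and 0 in the control, and was at least 16.2-fold and at least 19.8-fold higher than in the control. The libraries are strand-specific, but whether the counting used strand is not given in the sources used here, so reads of the pair cannot be told apart where they overlap. Of the 31-base words of Nr2f1 transcripts, 0.864% also occur in transcripts of other genes, most of them in Nr2f2, and at least 49.4% of the Nr2f1 expression of each library that had any was assigned to the full-length Nr2f1-201.

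Nr2f2, known for venous and mesenchymal roles, had 7.30 and 7.85 CPM in mT69a vector libraries, 9.41 and 10.7 in the knockout and 8.75 and 10.2 in the control. In mT6 it had 5.96 and 10.1 CPM in vector libraries, 11.1 and 10.9 in the knockout and 7.38 and 7.46 in the control. Vector libraries were below the knockout in both lines, with an average log2 fold change of -0.43 ± 0.16 that passed only with the replicate block. Nr2f6, the more distant member of the group, lay at 34.6 to 44.3 CPM in mT69a and 41.0 to 53.4 CPM in mT6. Its log2 fold change of knockout against control was -0.11 ± 0.11, with a 95% interval from -0.35 to 0.12. The log2 fold change of the mT69a control against the mT6 control was -0.35 ± 0.15, which passed only with the replicate block.

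Nr5a2, a keeper of acinar identity, was counted in 3 of the 12 libraries. It had 0 counts in each vector and knockout library of mT69a and 11 and 8 in the control, and in mT6 the only counts were 2 in a control library. Nr5a2 was at least 6.18-fold lower in the mT69a knockout and at least 5.74-fold lower in mT69a vector libraries than in the control, with a bound of 2.28 to 6.90 when 1 library was left out. Of the 7 acinar markers, 5 to 7 were at 0 in each library, and their sum was 0 to 0.28 TPM in mT69a vector libraries, 0.03 to 0.12 TPM in the knockout and 0.82 to 0.87 TPM in the control. In mT6, where Nr5a2 was at or near 0, the sum was 0 to 1.27 TPM in vector libraries, 0.17 to 0.59 TPM in the knockout and 0.54 to 0.80 TPM in the control. The part of such cells in the Nr5a2 counts was not tested.

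Esrra, which drives mitochondrial and oxidative genes, had the highest median level of the 9 and the narrowest span, 0.33 on the log2 scale between its highest and lowest group means. It had 45.2 and 42.4 CPM in mT69a vector libraries, 46.1 and 37.9 in the knockout and 49.6 and 47.3 in the control. In mT6 it had 49.9 and 39.3, 54.4 and 42.0, and 58.3 and 47.5 CPM in the vector, knockout and control libraries. The library numbered 1 was above the library numbered 2 in all 6 groups. Knockout against control gave -0.17 ± 0.12, with a 95% interval from -0.44 to 0.10, and chromosome 19, which holds Esrra, had a median of -0.29 in mT6.

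**Figure D3:**
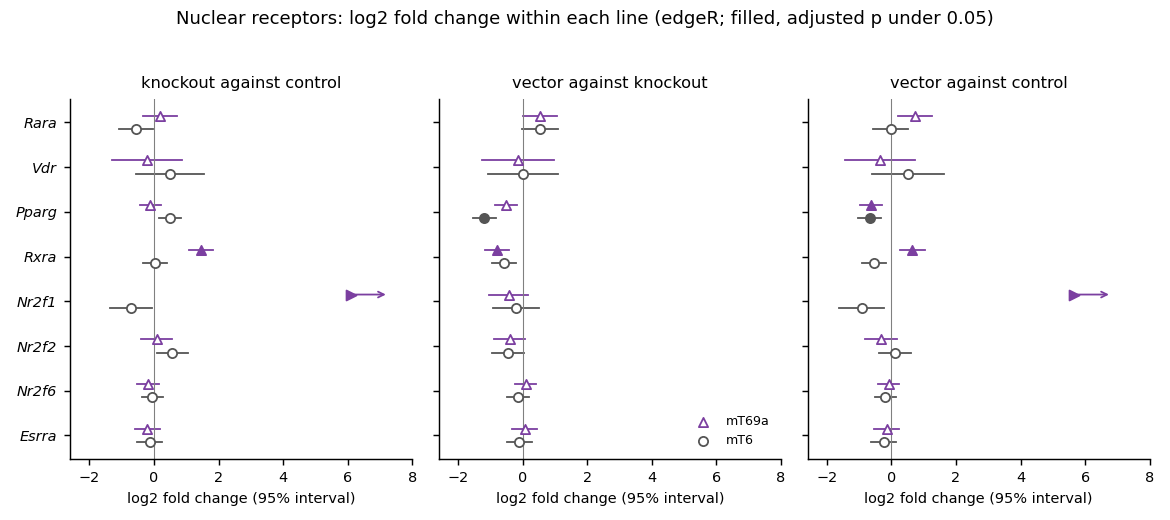
Log2 fold changes of 8 receptors within each line, with 95% intervals, for knockout against control, vector against knockout and vector against control, with mT69a as triangles and mT6 as circles. Filled symbols passed the threshold, and arrows mark Nr2f1 in mT69a as a lower bound (68.3-fold and 50.1-fold), since its control libraries had 0 counts.

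Read against all tested genes with the lines averaged, 2 of the 8 measured receptors (Rxra and Nr2f1) passed for knockout against control, both higher. Of all genes 5.6% passed there and 3.3% were higher. In mT6 alone the log2 fold changes were 0.04 for Rxra and -0.72 for Nr2f1, and neither passed. For vector against knockout 2 of 8 passed (Pparg and Rxra), both lower, where 7.77% of all genes passed and 3.32% were lower. For vector against control Nr2f1 passed higher and Pparg lower, where 14.5% passed, 8.04% higher and 6.41% lower. For the controls, mT69a against mT6, Pparg passed higher and Rxra and Nr2f1 lower, where 28.2% passed. The receptors were picked with these comparisons known, so nothing is read from the counts.

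Within mT69a, Rxra and Nr2f1 passed for knockout against control (8.6% of all genes), Rxra for vector against knockout (4.25%), and Rxra, Nr2f1 and Pparg for vector against control (12.4%). Within mT6, Pparg passed for vector against knockout (2.69%) and for vector against control (8.6%). Some of these calls were lost when 1 library was left out. In mT69a, that of Rxra for vector against knockout was lost without knockout 1, vector 1 or vector 2, and those of Rxra and Pparg for vector against control were lost without any 1 of the mT69a vector or control libraries. In mT6, that of Pparg for vector against control was lost without vector 2, either control library, or any 1 of the mT69a vector or control libraries, which share its estimate of the spread. For knockout against control in mT6 edgeR called 0 of 8 (3.23% of all genes), with 4 at an unadjusted p under 0.05 and 0 called by DESeq2 or limma. The difference between lines in knockout against control passed for Rxra and Nr2f1 (6.62%). In vector against knockout that difference was called by edgeR for 0 of 8 (0.0138%), with 1 at an unadjusted p under 0.05 and 0 called by DESeq2 or limma.

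Under the replicate block 4 of 8 passed for vector against knockout (15.8% of all genes), with Rara higher and Nr2f2 lower added. Rara was also added, higher, for vector against control (25.4%) and within mT69a for vector against knockout (10.6%), where Pparg was added too. Within mT69a the block also added Rara, higher, for vector against control (22.5%), and within mT6 it added Rxra, lower, for that contrast (19%). Nr2f6 was added, lower, for the mT69a control against the mT6 control (41.8%). In the block fit Pparg, higher, and Rara, lower, passed for knockout against control in mT6 (12.5%), and the difference between lines in that contrast passed for both genes as well (15.2%). The comparisons share libraries, the knockout in some and the control in others, so their values for a receptor are not independent.

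Transcript shares, as the authors' quantification assigned them, gave the form of each receptor. Rxra-201 held 71.7% to 98.4% of Rxra and Esrra-201 held 74.5% to 88.2% of Esrra, while Nr2f6-201 held 72.4% to 99.0% of Nr2f6. Pparg was split between Pparg-204 (24.1% to 67.2%) and Pparg-202 (25.2% to 62.6%), which start at 115362292 and 115360951 on chromosome 6 and have coding sequences of the same length, 1425 bases. Rara was split between Rara-204 (21.6% to 66.8%) and Rara-202 (33.2% to 62.7%), which start at 98937698 and 98960412 on chromosome 11. Nr2f2 was spread over 4 transcripts, of which the retained-intron form Nr2f2-203 had the highest mean share, 32.9%. Shares of genes with few counts rest on few reads, and no transcript was tested.

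Beyond the 9, 21 of 38 other nuclear receptors considered here were measured. For these and the lists below, 5.6% of all genes passed for knockout against control, 7.77% for vector against knockout and 14.5% for vector against control. With the replicate block these were 2171 of the 14473 genes, 15.8% and 25.4%, in that order. In the knockout against the control 1 of the 21 receptors rose, 2 fell and 18 did not pass. Their median log2 fold change was -0.09 against -0.0034 for all genes. Hnf4a, a master receptor of endodermal epithelium, fell by 1.14 ± 0.16 (adjusted p = 0.00252) and its relative Hnf4g fell by 0.97 ± 0.21 (adjusted p = 0.0247). The fall of Hnf4a differed between the lines (adjusted p = 0.00129). In mT69a it had 18.4 and 16.9 CPM in vector libraries, 30.7 and 23.0 in the knockout and 152 and 141 in the control. In mT6, Hnf4a had 9.11 and 13.3 CPM in vector libraries, 16.3 and 24.9 in the knockout and 16.6 and 20.2 in the control, so the mT69a control stood apart from all other groups. Esr1, the estrogen receptor, rose by 0.75 ± 0.18 (adjusted p = 0.0385), a call that was lost in 9 of 12 fits with 1 library left out, and that of Hnf4g was lost in 4. The replicate block gave 2 of the 21 higher and 4 lower.

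In vector libraries against the knockout 1 of the 21 rose, 2 fell and 18 did not pass (median -0.09 against -0.019 for all genes). Nr4a1, an orphan receptor induced as an immediate early gene, had 37.4 and 27.3 CPM in mT69a vector libraries, 5.86 and 5.39 in the knockout and 3.38 and 2.56 in the control. In mT6, Nr4a1 had 22.4 and 16.7 CPM in vector libraries, 4.07 and 3.20 in the knockout and 6.25 and 5.75 in the control. It rose by 2.48 ± 0.16 (adjusted p = 1.63e-05), 5.59-fold, with vector libraries above the knockout in both lines. Hnf4a fell by 0.75 ± 0.17 (adjusted p = 0.0225, lost in 5 of 12 fits with 1 library left out), and the thyroid hormone receptor Thrb fell by 1.22 ± 0.24 (adjusted p = 0.0121, lost in 2 of 12). In mT69a, Thrb had 2.14 and 2.44 CPM in vector libraries, 13.1 and 10.8 in the knockout and 10.3 and 12.1 in the control. Its log2 fold change, vector against knockout, was -2.39 in mT69a and -0.04 in mT6, and the difference between lines did not pass (adjusted p = 0.3). Blocking on the replicate gave 2 of the 21 higher and 5 lower.

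Against the control, vector libraries had 2 of the 21 higher, 4 lower and 15 that did not pass (median -0.14 against -0.015 for all genes). Nr4a1 rose by 2.58 ± 0.16 (adjusted p = 6.73e-06) and the clock repressor Nr1d2 by 0.43 ± 0.13 (adjusted p = 0.0464, lost in 9 of 12 fits with 1 library left out). Hnf4a fell by 1.89 ± 0.17 (adjusted p = 6.05e-05), Thrb by 1.39 ± 0.24 (adjusted p = 0.00369) and Hnf4g by 1.22 ± 0.22 (adjusted p = 0.00428). Of these calls, that of Thrb was lost with limma on log2(TPM + 1) and log2(TPM + 0.1). The glucocorticoid receptor Nr3c1 fell by 0.41 ± 0.11 (adjusted p = 0.034, lost in 7 of 12). In mT69a, Nr3c1 had 34.0 and 34.5 CPM in vector libraries, 38.3 and 33.1 in the knockout and 65.6 and 75.8 in the control. The 341 tested genes of its chromosome, 18, had a median of -0.51 there for vector against control and -0.49 for knockout against control. With the replicate block 4 of the 21 were higher and 7 lower.

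**Figure D4:**
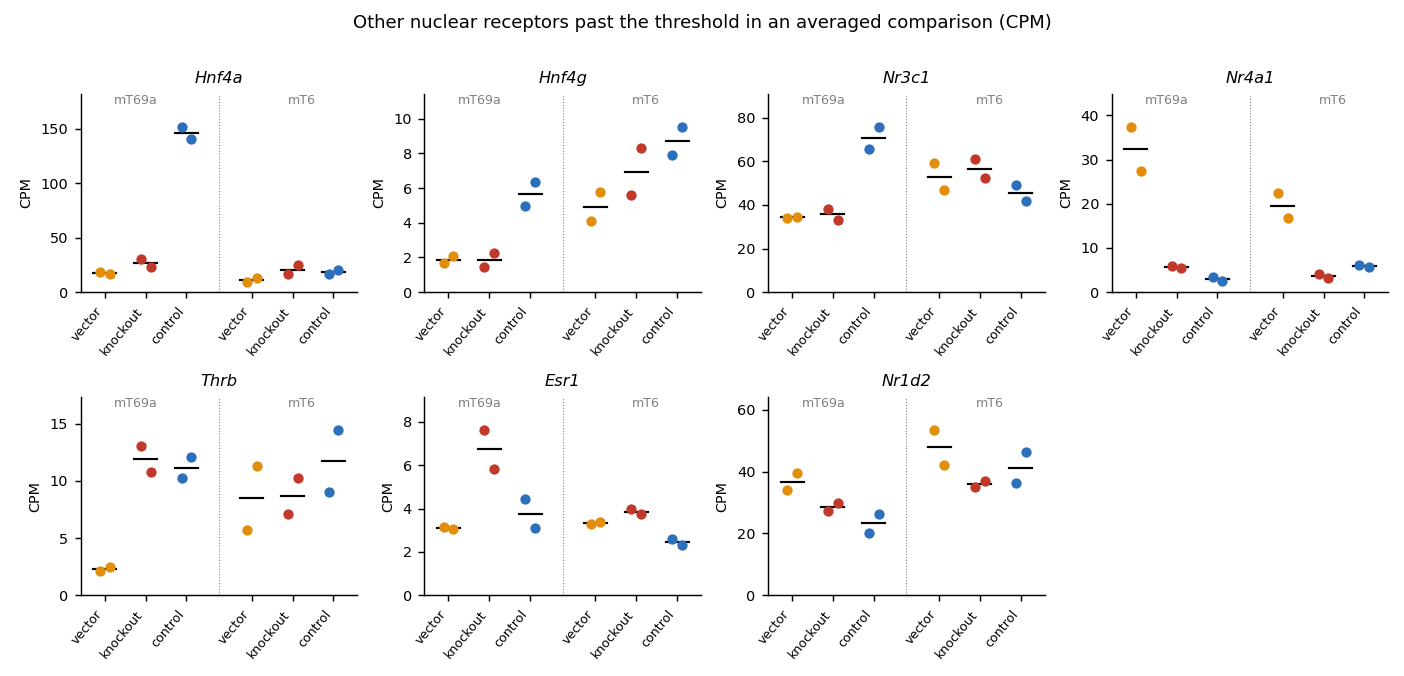
CPM in each library (points) and group means (bars) of the 7 other nuclear receptors that passed in an averaged comparison, mT69a left of the dotted line and mT6 right of it. Hnf4a is high only in the mT69a control (152 and 141 CPM), and Nr4a1 is higher in the vector libraries of both lines than in their other libraries.

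Genes that supply retinoic acid, the ligand of RARA, were the next list. Of 19 such genes 11 were measured, and in the knockout against the control 2 rose, 1 fell and 8 did not pass, with a median of 0.80 against -0.0034 for all genes. By line, the list median was 1.35 in mT69a, with 4 higher and 0 lower, where 8.6% of all genes passed. In mT6 it was -0.025, with 0 higher and 1 lower, where 3.23% passed. Averaged over the lines, Stra6, the cell-surface carrier that takes up retinol, rose by 1.87 ± 0.14 (adjusted p = 4.41e-05). Aldh1a1, an enzyme that makes retinoic acid, rose by 1.94 ± 0.15 (adjusted p = 4.41e-05). The secreted carrier Rbp4 fell by 1.42 ± 0.36 (adjusted p = 0.0449, lost in 10 of 12 fits with 1 library left out). Against the control, vector libraries had 2 higher and 1 lower of the 11, the same 3 genes, with Stra6 at 2.11 ± 0.15, and the call of Rbp4 was lost in 12 of 12 fits with 1 library left out. Against the knockout only Aldh1a1 passed, lower by 0.83 ± 0.16 (adjusted p = 0.00903). In the block fit 4 rose and 3 fell in the knockout, and 5 fell in vector libraries against the knockout.

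The rise of Stra6 and Aldh1a1 differed between the lines (adjusted p = 5.84e-06 and 0.000233). Stra6 had 114 and 113 CPM in mT69a vector libraries, 92.2 and 85.0 in the knockout and 3.63 and 3.17 in the control. In mT6, Stra6 had 3.97 and 4.46 CPM in vector libraries, 3.36 and 4.28 in the knockout and 9.14 and 6.14 in the control. Stra6 thus rose by 4.70 ± 0.21 in mT69a and fell by 0.95 ± 0.20 in mT6 (adjusted p = 1.58e-06 and 0.0328), opposite directions that each passed. Aldh1a1 had 60.0 and 47.5 CPM in mT69a vector libraries, 63.3 and 60.6 in the knockout and 6.19 and 4.71 in the control, and at most 6.01 CPM in mT6.

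Genes induced by retinoic acid were mostly low, with 6 of 15 measured. Stra6, which is on this list too, was the 1 that passed for knockout against control and for vector against control. For vector against knockout edgeR called 0 of the 6, with 3 at an unadjusted p under 0.05, 2 called by DESeq2 and 0 by limma, and with the replicate block 2 passed, both lower. Rarb, a receptor that retinoic acid induces, had 0 CPM in mT69a vector libraries, 0.0538 and 0.087 in the knockout and 0 in the control, and 0.707 to 3.27 CPM in mT6.

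**Figure D5:**
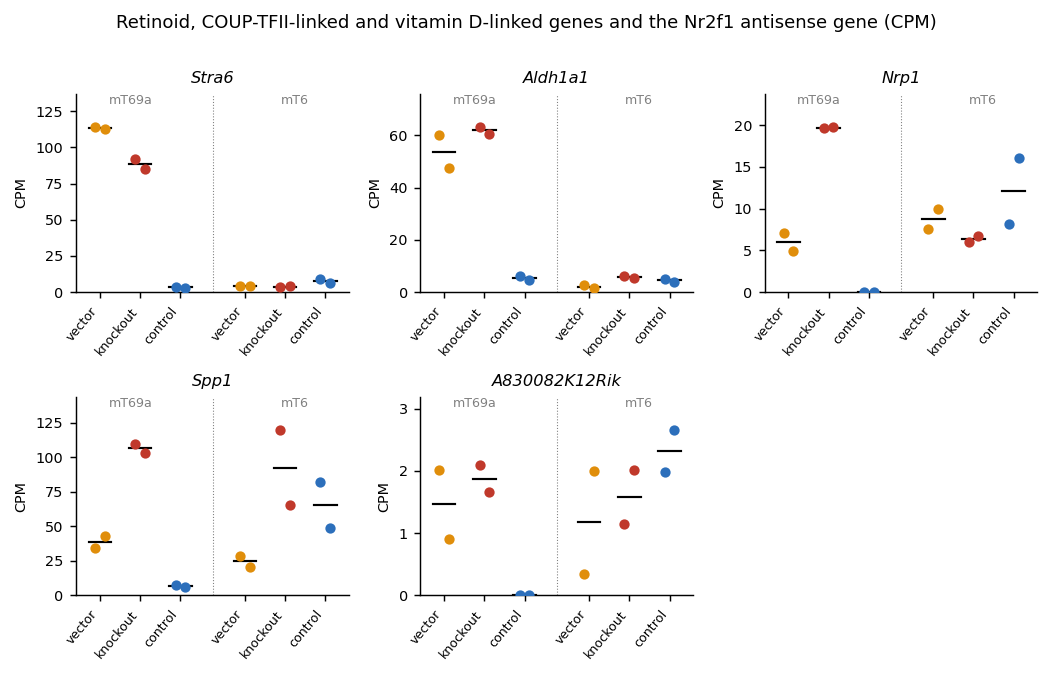
CPM in each library (points) and group means (bars) of 2 retinoid genes, the COUP-TFII-linked Nrp1, Spp1 and the noncoding gene overlapping Nr2f1, mT69a left of the dotted line and mT6 right of it. In mT69a the control is lowest for all 5, with Stra6 at 92.2 and 85.0 CPM in the knockout against 3.63 and 3.17 CPM in the control.

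Of 18 genes of vitamin D supply and response 8 were measured. In the knockout 1 rose and 2 fell, and in vector libraries against the knockout 1 rose and 2 fell. Spp1, which encodes osteopontin, rose by 2.24 ± 0.24 in the knockout (adjusted p = 0.000669) and fell by 1.68 ± 0.23 in vector libraries against the knockout (adjusted p = 0.0018). In mT69a, Spp1 had 34.1 and 43.2 CPM in vector libraries, 110 and 104 in the knockout and 7.56 and 5.93 in the control. In mT6, Spp1 had 28.7 and 20.8 CPM in vector libraries, 120 and 65.1 in the knockout and 82.2 and 48.8 in the control, so there the knockout overlapped the control. Knockout against control was 3.98 ± 0.37 in mT69a (adjusted p = 0.000168) and 0.50 ± 0.32 in mT6 (adjusted p = 0.489). The 6 immune markers, 3 to 5 of them at 0 in each library, summed to 3.56 to 5.76 TPM in mT69a vector libraries, 7.36 to 14.3 TPM in the knockout and 4.02 to 5.15 TPM in the control, and their part in the Spp1 values was not tested. The claudin gene Cldn2 moved the other way, falling by 1.36 ± 0.16 in the knockout (adjusted p = 0.000703) and rising by 1.17 ± 0.15 with the vector (adjusted p = 0.00111). Cyp27b1, which activates vitamin D, fell by 1.97 ± 0.49 in the knockout (adjusted p = 0.0439), lost in 12 of 12 fits with 1 library left out, and Cubn fell by 1.78 ± 0.38 with the vector (adjusted p = 0.016), lost in 4. Under the block 3 rose and 3 fell in the knockout.

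Of 26 PPAR targets 15 were measured. The lipid droplet gene Plin2 fell by 1.18 ± 0.28 in vector libraries against the knockout (adjusted p = 0.0339), where Pparg was also lower, a call lost in 7 of 12 fits with 1 library left out. Plin2 had 14.2 and 9.20 CPM in mT69a vector libraries, 35.7 and 20.4 in the knockout and 19.5 and 14.5 in the control. The acyl-CoA thioesterase gene Acot1 rose by 1.58 ± 0.29 in the same comparison (adjusted p = 0.00728), and the other 13 did not pass, with a list median of -0.08. In the knockout against the control Acadl, of fatty acid oxidation, rose by 0.57 ± 0.09 (adjusted p = 0.00446) and the mitochondrial carrier Ucp2 fell by 0.74 ± 0.09 (adjusted p = 0.00128). With the replicate block 2 rose and 2 fell in the knockout, and 2 rose and 4 fell in vector libraries against the knockout. Against the control, where Pparg was lower as well, vector libraries had 3 of the 15 higher, Acot1 and Acadl among them, and 1 lower. With the block 4 were higher and 4 lower. Between the controls, mT69a against mT6, 7 of the 15 were higher and 2 lower, where 28.2% of all genes passed. The list median there was 0.63 against -0.027 for all genes.

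Of 20 oxidative targets of ESRRA 19 were measured, and for knockout against control edgeR called 0, with 2 at an unadjusted p under 0.05 and 0 called by DESeq2 or limma. In vector libraries against the knockout Lactb rose by 1.08 ± 0.21 (adjusted p = 0.0108) and the other 18 did not pass, whereas with the replicate block 4 also fell. Against the control, vector libraries had 1 higher (Lactb) and 2 lower (Slc25a4 and Cox5b), where 14.5% of all genes passed. With the block 2 were higher and 8 lower, where 25.4% of all genes passed. Between the controls, mT69a against mT6, 10 were higher and 1 lower, where 28.2% of all genes passed. The list median there was 0.50 against -0.027 for all genes. Of 23 NR5A2 targets, most of them acinar enzymes or bile acid genes, 4 were measured. The cyclin gene Ccnd1 rose by 0.47 ± 0.12 in the knockout (adjusted p = 0.0489), a call lost in 9 of 12 fits with 1 library left out. The other 3 did not pass, and 1 of them fell with the replicate block. In vector libraries against the control Ccne1 was higher and the other 3 did not pass. The call of Ccne1 was lost in 10 of 12 fits with 1 library left out.

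Of 15 genes linked to COUP-TFII (NR2F2) in vessel and tumour biology 9 were measured. In the knockout 3 rose and 1 fell. Nrp1, a coreceptor for VEGF and semaphorins, had 7.12 and 4.96 CPM in mT69a vector libraries, 19.6 and 19.8 in the knockout and 0.0625 and 0 in the control. Its summed counts were 593 in the mT69a knockout and 1 in the control, a ratio of 608 with a 95% exact interval from 109 to 24000. In mT6, Nrp1 had 7.60 and 9.98 CPM in vector libraries, 6.01 and 6.69 in the knockout and 8.23 and 16.1 in the control. The 5 endothelial markers summed to 0.10 to 0.16 TPM in mT69a vector libraries, 0.27 to 0.37 TPM in the knockout and 0 to 0.07 TPM in the control, and to 0.22 to 0.35 TPM in mT6, with 1 to 5 of them at 0 in each library, and their part in the Nrp1 values was not tested. The transcription factor gene Foxc1 and Ccnd1 were the others that rose, Foxc1 by 0.65 ± 0.12 (adjusted p = 0.0104). The ephrin receptor gene Ephb4 fell by 1.32 ± 0.14 (adjusted p = 0.000356) and was lower in the knockout than in the control in both lines. Against the control, vector libraries had Nrp1 and Foxc1 higher and Nrp2 and Ephb4 lower, and the other 5 did not pass. The call of Nrp2 was lost in 3 of 12 fits with 1 library left out.

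Among 26 coregulators 25 were measured, and 1 passed for knockout against control. Bcl11b, a corepressor partner of the COUP-TF receptors, fell by 1.51 ± 0.27 (adjusted p = 0.00825). In mT69a it had 0.653 and 0.271 CPM in vector libraries, 0.484 and 0.348 in the knockout and 3.81 and 3.50 in the control, and in mT6 1.75 and 2.58 CPM in vector libraries, 3.63 and 3.59 in the knockout and 3.12 and 3.79 in the control. The coactivator Ncoa1 fell by 0.94 ± 0.17 in vector libraries against the control (adjusted p = 0.00491). Both genes are on chromosome 12, whose 565 tested genes had a median of -0.34 in mT69a, knockout against control. For vector against control in mT69a that median was -0.39. In vector libraries against the control 1 of the 25 was higher and 3 lower. The gene that was higher was Zfpm2, with 40 counts summed over the mT69a vector libraries and 0 in the control, at least 14.7-fold. Its call was lost in 3 of 12 fits with 1 library left out and with limma on TPM. For vector against knockout edgeR called 0 of the 25, with 6 at an unadjusted p under 0.05 and 0 called by DESeq2 or limma. With the replicate block 3 rose and 4 fell in the knockout, and 2 rose and 1 fell in vector libraries against the knockout.

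The genes whose course over the 12 libraries was most like that of a member were found by the root mean square difference of log2 CPM after each gene's mean was removed. Among the genes reported, Rxra was close to Ppp2r3a (0.206), Elk3 (0.232) and Wfs1 (0.234), and Rara to Rab1b (0.125), Dxo (0.136) and Pum3 (0.156). Pparg was closest to Gramd2 (0.146), Syt16 (0.261) and Hpcal4 (0.302). Nr2f1 was nearest to Ikzf2, Adgrl3 and Zdhhc14, at 0.553, 0.596 and 0.661. The distance is not scaled to the span between group means, which was 5.64 for Nr2f1, 2.43 for Pparg, 1.43 for Rxra and 1.14 for Rara. It therefore does not rank the matches of different members. The other 4 measured members moved by 1 or less on the log2 scale between groups and were not matched.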

How the data were processed

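RNA from 12 libraries of Matrigel-grown organoids was isolated in Trizol, freed of DNA with DNase and prepared with the TruSeq Stranded Total RNA kit, per the labels' protocols. The authors used FastQC 0.11.8, STAR 2.5.2b, RSEM 1.3.0 and GRCm38.p6, per the submitters' processing notes. The deposited gene tables hold the authors' expected counts and TPM, and the deposited transcript tables hold the authors' transcript shares in percent. Expected counts were rounded for testing (8.08% to 11.3% were not whole within 0.005). Of 53715 identifiers 53620 matched GENCODE M21, and 95 without a symbol (0.0109% of counts) were kept in library sizes.

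Genes kept by filterByExpr (14473) were fitted with edgeR 4.0.16 in R 4.3.3, with a mean for each of 6 groups, TMM factors from 0.839 to 1.20, 6 residual degrees of freedom and two-sided Benjamini-Hochberg adjusted p over all genes, threshold 0.05. The biological coefficient of variation was 19.2%, and p-values reflect the spread among these libraries alone, which may be technical. Folds against 0 use a floor of 3 counts summed over a group (0.104 to 0.330 CPM in a single library), and such folds and intervals cover counting error only. DESeq2 1.42.0, limma 3.58.1, Python 3.11.15, numpy 2.4.6, pandas 2.3.3 and matplotlib 3.10.9 were also used. On simulated counts of 13958 genes for knockout against control, 88% of 100 genes changed by 1 on the log2 scale were recovered. Of 100 genes changed by 2, 98% were recovered, and there were 10 false calls. The changed genes were drawn only from genes counted well above the level of Vdr. No effect shared by libraries of the same number was simulated, so these shares do not cover low genes or that effect.

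Libraries with the same number deviated together (correlations of 0.205 to 0.531 over 15 pairs of groups), so the numbers pair the libraries and a fit with them as a block was run. Members and lists were chosen with earlier results of these data known. The text names every other receptor past the threshold in an averaged comparison and up to 3 genes of each list with the largest change at 1 CPM or more. It also names the closest genes of members that span over 1 on the log2 scale. Of the ductal markers, Sox9 passed higher for vector against control, and Epcam higher and Krt7 lower for vector against knockout. Each of those calls was lost in at least 6 of 12 fits with 1 library left out. A830082K12Rik, Cldn2, Acadl, Foxc1 and Rarb were named after their values were seen. Some genes are not reported here and were left out of the lists.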

Additional observations from a re-analysis of the deposited data

Results flagged for a closer look

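The difference between knockout and control differed between mT69a and mT6 for the genes given here, by the interaction term of edgeR's quasi-likelihood test. Each value is the log2 fold change in mT69a minus that in mT6. Among the receptors it was 1.41 for Rxra (adjusted p = 0.00602) and 10.33 for Nr2f1 (adjusted p = 6.27e-05), and among other receptors -2.61 for Hnf4a (adjusted p = 0.00129), -1.30 for Nr3c1 (adjusted p = 0.0066) and 1.66 for Nr4a1 (adjusted p = 0.0162). For the retinoid genes it was 5.66 for Stra6 (adjusted p = 5.84e-06) and 3.12 for Aldh1a1 (adjusted p = 0.000233). It was -3.13 for Bcl11b (adjusted p = 0.00653), 3.48 for Spp1 (adjusted p = 0.00255), 9.87 for Nrp1 (adjusted p = 4.17e-05), 8.35 for A830082K12Rik (adjusted p = 0.0143) and 1.09 for Foxc1 (adjusted p = 0.0215). With 1 library left out, the call of Foxc1 was lost in 4 of 12 fits, that of Nr4a1 in 4 and that of A830082K12Rik in 2. With limma on log2(TPM + 1) and on log2(TPM + 0.1), those of Rxra, Nr3c1, Nr4a1, Bcl11b and Foxc1 were lost. That of A830082K12Rik was lost on log2(TPM + 1) alone. Elk3, Wfs1, Syt16, Ikzf2, Adgrl3 and Zdhhc14 also passed. They had been picked from these same libraries for a course like that of a receptor, so nothing is read from that. The call of Elk3 was lost in 10 of 12 fits with 1 library left out and those of Wfs1 and Syt16 in 5. Each of these was also lost with limma on TPM. The fitted values of Nr2f1, Nrp1 and A830082K12Rik rest on mT69a control libraries with 0 or 1 count and are not bounds. Each line has 1 knockout label, shared by its knockout and vector libraries, and 1 control label, so clone and loss of Spdef cannot be told apart.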

How the results depend on the processing

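No named value changed direction past its threshold. Numbers of genes past the threshold depended on the setting. Knockout against control gave 810 genes, 1555 without the filter, 429 and 430 with limma on log2(TPM + 1) and log2(TPM + 0.1), 2171 with the replicate block and 431 to 889 with 1 library left out. Vector against knockout gave 1125, 1740 without the filter, 593 and 583 on TPM, 2293 with the block and 637 to 1098 with 1 left out. Vector against control gave 2092, 1049 and 1027 on TPM, 3677 with the block and 1208 to 1904 with 1 left out. The difference between lines in knockout against control gave 958, 1577 without the filter, 444 and 415 on TPM, 2206 with the block and 533 to 1064 with 1 left out. That in vector against knockout gave 2, 46 with DESeq2, 196 without the filter, 7 and 3 on TPM, 55 with the block and 0 to 4 with 1 left out. The controls, mT69a against mT6, gave 4078, 1813 and 1920 on TPM and 2040 to 4354 with 1 left out. The lowest counts came without mT69a knockout 1 (431), mT69a vector 1 (637 and 1208), mT69a control 2 (533) and mT69a control 1 (2040). The calls of Rxra were lost on TPM at both pseudocounts, except knockout against control in mT69a, as was that of Nr2f1 for vector against control at log2(TPM + 1), where it was 0.47. The calls of Pparg for vector against control within each line were lost on TPM at both pseudocounts. Among other calls lost that way were those of Acadl, Ucp2, Bcl11b and Foxc1 for the average of knockout against control. Those of Lactb, Thrb and Hnf4a for the average of vector against knockout were lost likewise. Without mT6 control 2 the Rxra difference between the controls was lost (adjusted p = 0.0632). The cause was not tested. With 2 libraries a group and few counts, changes in Vdr and Nr5a2 are limited by depth.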
